A study of Homo sapiens with 4 samples.

Results

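The genes described here are 44 regulators of pre-mRNA splicing: 11 SR proteins (SRSF1 to SRSF11), the SR-like proteins TRA2A and TRA2B, the kinases CLK1 to CLK4, SRPK1 and SRPK2, the speckle proteins SON, SRRM1 and SRRM2, the paraspeckle proteins SFPQ, NONO and PSPC1, both U2AF subunits, 14 hnRNPs, PTBP1, PTBP3 and TIA1. They were chosen by function, as a list of gene symbols, with earlier results of these data known. They were matched by symbol and Ensembl identifier. All 44 were found among the 61860 genes of the count table, and all 44 were among the 17492 genes with enough counts to be tested. The RNA came from NK-92 cells, a line of human natural killer cells that depends on interleukin-2 (IL-2) for growth, and total RNA was sequenced. The edited line, dOGT-ISS, lacks the intronic splicing silencer (ISS) of OGT, the gene for the enzyme that adds the sugar O-GlcNAc to proteins. It was set against the unedited line, WT. Each line gave 1 library from cells that received IL-2 at 24 h before extraction and 1 from cells that received it at 48 h, in medium that itself held IL-2. The titles name IL-2 for the 24 h libraries only, and the times used here are those of the treatment label. Only 1 edited line was sequenced, and whether it is a single clone is not given. With 1 library per line and time, the spread behind each p-value is how far the line difference disagrees between the times, drawn in part from other genes. It is not a spread among like libraries. Nothing says that libraries came from separate cultures, so that spread may be technical.

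SR proteins carry RNA-binding domains and a tail rich in arginine and serine, and they typically bind exonic enhancers and recruit the splicing machinery. SRPK kinases phosphorylate that tail in the cytoplasm and CLK kinases in the nucleus, which moves SR proteins in and out of nuclear speckles. hnRNPs coat nascent transcripts and often oppose exon inclusion. Many of these genes limit their own levels by splicing into transcripts that retain an intron or are destroyed by nonsense-mediated decay. SON and SFPQ have been linked to retention of an intron in OGT itself.

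The 24 h libraries held 28576566 counts (dOGT-ISS) and 24809269 counts (WT), and the 48 h libraries held 11305599 and 10889986. In CPM, counts scaled to a library total after TMM normalisation, the targeted gene, OGT, had 384 and 399 CPM in dOGT-ISS cells at 24 h and 48 h, against 449 and 446 CPM in WT cells. The dOGT-ISS values lay below the WT values, but the line difference did not pass the test (log2 -0.19, standard error (SE) 0.16, edgeR adjusted p = 0.862). Counts per gene do not separate intron-retaining from spliced OGT transcripts, and give no check of the deletion. OGA, the gene for the opposing hydrolase, had 136 and 127 CPM in dOGT-ISS cells at 24 h and 48 h, against 157 and 151 CPM in WT cells, and its line difference of -0.23 (SE 0.15, edgeR adjusted p = 0.804) did not pass either. Of 14 natural killer cell markers, GZMA and TYROBP were lower in dOGT-ISS cells (14.3%, against 0.314% of all genes tested). The 14 markers summed to 3422 and 3459.9 CPM in dOGT-ISS cells at 24 h and 48 h, against 5808 and 4213 CPM in WT cells. Between times, 6 of the 14 were higher (42.9%, against 15.0% of all genes tested) and 2 lower (14.3%, against 10.9%) at 24 h. Of 10 myeloid markers 4 were testable, and S100A8 and S100A9 were lower at 24 h. The myeloid sum was 47.9 and 612 CPM in dOGT-ISS cells at 24 h and 48 h, against 316 and 828 CPM in WT cells, most of it S100A9. T cell markers (4 of 10 testable) summed to 333 to 476 CPM and B cell markers (2 of 7 testable) to 54.2 to 81.5 CPM over the 4 libraries. Among these, 1 marker of each, CD3E and CD79A, was higher at 24 h. CD79A was near the floor, with 18 and 44 counts at 24 h in dOGT-ISS and WT cells (0.621 and 1.79 CPM). Most of the B cell sum was PAX5, whose log2 time difference of -0.113 did not pass. The PAX5 ratio of 24 h to 48 h was 1.31 in dOGT-ISS cells and 0.652 in WT cells. No marker was at 0 in all 4 libraries, and CD79A was at 0 in both 48 h libraries. The part of these marker differences in the results below was not tested.

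The splicing regulators spanned a wide range of levels. On the length-corrected scale of the authors' FPKM (fragments scaled by transcript length and library total), averaged over the 4 libraries, the highest was HNRNPH1 at 379, followed by HNRNPA2B1 at 365, HNRNPA1 at 304 and HNRNPK at 302, all 4 of them hnRNPs. The lowest were SRSF8 at 10.1, SRPK2 at 11.4, CLK4 at 16.5 and U2AF1 at 16.6. The order at the top is not firm. HNRNPH1 had 364 and 321 FPKM in dOGT-ISS cells at 24 h and 48 h, against 374 and 457 FPKM in WT cells. HNRNPA2B1 had 216 and 378 FPKM in dOGT-ISS cells at 24 h and 48 h, against 253 and 613 FPKM in WT cells, so the libraries of neighbours in this order overlapped. The U2AF1 value is uncertain, because a near-identical copy of that gene took 121 counts against 1206 for U2AF1 itself.

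**Figure D1:**
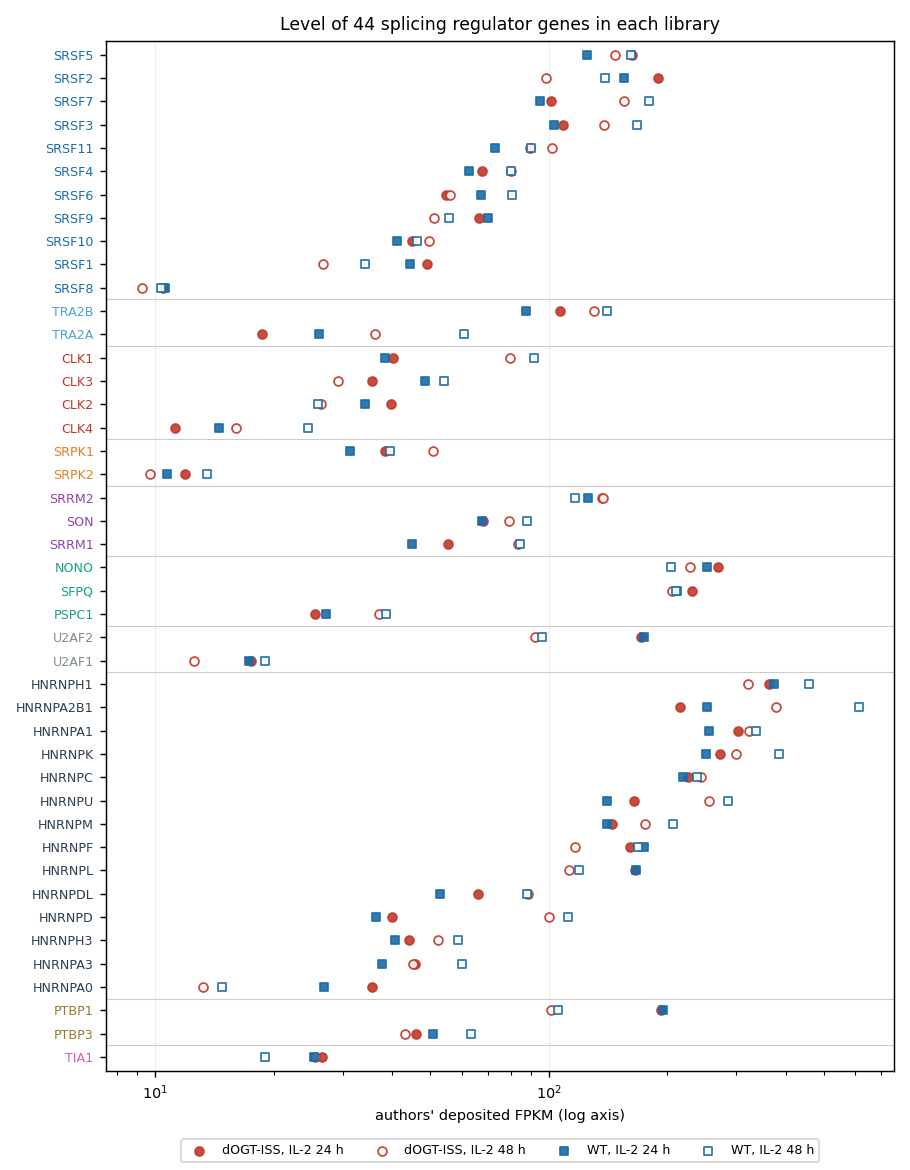
Level of each of the 44 genes in each library as the authors' FPKM (log axis), with genes grouped by role and ordered by mean level within a role; red marks dOGT-ISS and blue WT, filled symbols 24 h and open symbols 48 h. HNRNPH1 and HNRNPA2B1 lie at the right, SRSF8 and SRPK2 at the left, and for genes such as HNRNPD and CLK1 the symbols split by IL-2 time more than by line.

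Between the lines, none of the 44 genes passed the test (edgeR quasi-likelihood, Benjamini-Hochberg adjusted p under 0.05 over all genes). Over all 17492 genes 81 passed, which is 0.463%, with 26 higher (0.149%) and 55 lower (0.314%) in dOGT-ISS cells. DESeq2 also called 0 of the 44. Without a filter on low counts TRA2A and CLK3 passed, at log2 differences of -0.71 and -0.75 (edgeR adjusted p = 0.0489 and 0.0266), among 546 genes. With any 1 library left out, none of the 44 passed, and 0 to 13 genes in all did. At an unadjusted p under 0.05 edgeR marked 5 of the 44, all lower in dOGT-ISS cells, which is 11.4% against 9.08% of all genes. Of 7215 genes averaging at least 20 CPM it marked 998, a larger share than that of the 44. DESeq2 marked 6 of the 44 and 1102 of all 17492 genes. The 5 marked by edgeR were SRSF6, TRA2A, CLK3, CLK4 and HNRNPA2B1. Of the 44, 29 (65.9%) had line differences below 0, against 47.9% of all genes tested and 49.6% of genes averaging at least 20 CPM. The median log2 line difference of the 44 was -0.10, against 0.02 for all genes tested. That median was 0.08 without the WT 48 h library and -0.31 without the WT 24 h library, in fits with no term for time. In bulk RNA, fewer cells that express a gene and less of its RNA per cell cannot be told apart.

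Among the SR proteins, SRSF6, which can promote or block the use of an exon, had 235 and 242 CPM in dOGT-ISS cells at 24 h and 48 h, against 296 and 361 CPM in WT cells. Both dOGT-ISS libraries lay below both WT libraries, and the log2 difference was -0.45 (SE 0.16, edgeR adjusted p = 0.415). SRSF5 had 240.0 and 219 CPM in dOGT-ISS cells at 24 h and 48 h, against 189 and 249 CPM in WT cells, and its lines overlapped. SRSF2, a speckle-resident SR protein, had 353 and 184 CPM in dOGT-ISS cells at 24 h and 48 h, against 295 and 270.2 CPM in WT cells. The edited line was the higher of the pair at 24 h and the lower at 48 h, and the log2 difference was -0.14 (SE 0.21, edgeR adjusted p = 0.944). The other 8 SR proteins had line differences from -0.15 (SRSF1) to 0.19 (SRSF11). Of the SR-like pair, which bind purine-rich exonic enhancers, TRA2A had 32.8 and 63.8 CPM in dOGT-ISS cells at 24 h and 48 h, against 47.0 and 112 CPM in WT cells. At each time the edited line was lower, though the lines overlapped across times, and the log2 difference was -0.66 (SE 0.17, edgeR adjusted p = 0.181). TRA2B had 439 and 538 CPM in dOGT-ISS cells at 24 h and 48 h, against 369 and 604 CPM in WT cells, with a line difference of 0.04 (SE 0.18, edgeR adjusted p = 0.984).

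Of the CLK kinases, which phosphorylate SR proteins in the nucleus, CLK3 and CLK4 were among the 5 and CLK1 and CLK2 were not. CLK3 had 65.1 and 53.5 CPM in dOGT-ISS cells at 24 h and 48 h, against 90.6 and 103 CPM in WT cells. Both dOGT-ISS libraries lay below both WT libraries, with a log2 difference of -0.71 (SE 0.18, edgeR adjusted p = 0.179), the greatest in size among the 44. CLK4 had 27.6 and 39.8 CPM in dOGT-ISS cells at 24 h and 48 h, against 36.5 and 62.8 CPM in WT cells, lower in dOGT-ISS cells at each time, with a difference of -0.53 (SE 0.17, edgeR adjusted p = 0.351). CLK1 and CLK2 had differences of -0.11 and 0.08 that did not pass. Reads of CLK3 and of EDC3 on the opposite strand cannot be told apart if counting ignored strand, and EDC3 held 71.1% as many counts as CLK3. Of the SRPK kinases, SRPK1 had 164 and 218 CPM in dOGT-ISS cells at 24 h and 48 h, against 137 and 177 CPM in WT cells. It was the higher in dOGT-ISS cells at each time, with a difference of 0.28 (SE 0.15, edgeR adjusted p = 0.693). SRPK2 had 43.1 and 35.2 CPM in dOGT-ISS cells at 24 h and 48 h, against 39.8 and 51.1 CPM in WT cells, with overlapping lines and a difference of -0.20 (SE 0.20, edgeR adjusted p = 0.903). KMT2E, on the opposite strand, held 460% as many counts as SRPK2.

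None of the proteins of nuclear bodies was marked between the lines, even at an unadjusted p. SON, a scaffold of speckles, had 563 and 659.9 CPM in dOGT-ISS cells at 24 h and 48 h, against 571 and 759.8 CPM in WT cells, with a log2 difference of -0.11 (SE 0.16, edgeR adjusted p = 0.944). SRRM2, the other main speckle scaffold, had 1219 and 1233 CPM in dOGT-ISS cells at 24 h and 48 h, against 1146 and 1085 CPM in WT cells, with a difference of 0.14 (SE 0.17, edgeR adjusted p = 0.927). SRRM2 was the higher in dOGT-ISS cells at each time, and its fitted difference was less than its SE. SFPQ, a DNA- and RNA-binding paraspeckle protein, had 854 and 764 CPM in dOGT-ISS cells at 24 h and 48 h, against 799 and 813 CPM in WT cells, with a difference of 0.00 (SE 0.17, edgeR adjusted p = 0.998). Its partner NONO had 705 and 603 CPM in dOGT-ISS cells at 24 h and 48 h, against 677 and 562 CPM in WT cells, with a difference of 0.08 (SE 0.16, edgeR adjusted p = 0.962). For PSPC1, the third of this family, the difference was -0.12 (SE 0.16, edgeR adjusted p = 0.931). A p that misses the threshold does not show that the lines were alike. Of the U2AF subunits, which recognise the 3' splice site, U2AF1 had 16.2 and 11.7 CPM in dOGT-ISS cells at 24 h and 48 h, against 16.5 and 18.5 CPM in WT cells. U2AF2 had 363 and 196 CPM in dOGT-ISS cells at 24 h and 48 h, against 378 and 212 CPM in WT cells. Their line differences were -0.32 (SE 0.25, edgeR adjusted p = 0.856) and -0.09 (SE 0.15, edgeR adjusted p = 0.952).

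Of the 14 hnRNPs, 11 had line differences below 0 (78.6%, against 47.9% of all genes tested). HNRNPA2B1, which binds RNA in splicing and transport, had 771 and 1359 CPM in dOGT-ISS cells at 24 h and 48 h, against 923 and 2290.2 CPM in WT cells, with a log2 difference of -0.51 (SE 0.19, edgeR adjusted p = 0.448). The edited line was lower at each time, but the WT 24 h library lay below the dOGT-ISS 48 h library. HNRNPH1, a G-run binding protein, had 802 and 712 CPM in dOGT-ISS cells at 24 h and 48 h, against 844 and 1055 CPM in WT cells, with a difference of -0.32 (SE 0.19, edgeR adjusted p = 0.735). Among the rest of the hnRNPs the differences ran from -0.37 (HNRNPF) to 0.12 (HNRNPDL). PTBP1, the polypyrimidine tract-binding repressor, had 608 and 322 CPM in dOGT-ISS cells at 24 h and 48 h, against 630.3 and 349 CPM in WT cells, with a line difference of -0.08 (SE 0.16, edgeR adjusted p = 0.955). Its paralog PTBP3 had 325 and 307 CPM in dOGT-ISS cells at 24 h and 48 h, against 367 and 471 CPM in WT cells, with a difference of -0.40 (SE 0.17, edgeR adjusted p = 0.567). TIA1, which binds uridine-rich sequence near 5' splice sites, had 121 and 117 CPM in dOGT-ISS cells at 24 h and 48 h, against 118 and 90.8 CPM in WT cells, with a difference of 0.20 (SE 0.17, edgeR adjusted p = 0.87). C2orf42 on the same strand held 14.9% as many counts as TIA1.

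For most of the 44 genes the ratio between the lines was higher at 24 h than at 48 h. With 1 library per line at each time there is no test, and ratios are given with intervals that cover counting error only. The same disagreement between times is part of the spread behind the SE and p of each gene. At 24 h the log2 ratio of dOGT-ISS to WT was below 0 for 16 of the 44 genes, with a median of 0.06, against 0.03 for all genes averaging at least 20 CPM. At 48 h it was below 0 for 38, with a median of -0.21, against -0.04 for genes at that level. Of those 7215 genes, 3223 were below 0 at 24 h and 3964 at 48 h. Of the 16 hnRNPs and PTB proteins, 10 were above 0 at 24 h and none at 48 h. The 95% interval of the ratio lay above 1 for 23 of the 44 at 24 h and for 5 at 48 h, and below 1 for 12 at 24 h and for 33 at 48 h. These interval counts were not made over all genes, so they cannot be read as a trait of the 44. For 39 of the 44 (88.6%) the ratio was higher at 24 h than at 48 h, against 47.8% of all genes tested and 56.5% of genes averaging at least 20 CPM. Of 44 core spliceosome genes, 15 were below 0 at 24 h and 29 at 48 h (medians 0.04 and -0.06). Of 48 other splicing regulators, 14 and 29 were (medians 0.07 and -0.08). Of 8 minor spliceosome genes 5 and 7 were, and of 7 other kinases acting on splicing factors 4 and 3. The widest gap was that of SRSF2, with log2 ratios of 0.26 at 24 h and -0.55 at 48 h. Next came HNRNPA3 at 0.25 and -0.48, SRPK2 at 0.12 and -0.53, U2AF1 at -0.02 and -0.65, and HNRNPA0 at 0.38 and -0.22. The 5 genes with the opposite order were SRPK1, SRRM2, NONO, PSPC1 and TIA1. With other scalings 14 to 16 of the 44 were below 0 at 24 h and 34 to 38 at 48 h. The 48 h libraries held fewer counts than the 24 h libraries, and beyond these intervals the part of depth in the pattern was not tested.

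Of the 5 genes marked at an unadjusted p, 4 lay in stretches of chromosome whose other genes were also lower in dOGT-ISS cells. The median line difference of the 20 nearest genes on each side with at least 5 CPM was -0.41 around TRA2A (chr7:23504780-23532041), -0.47 around HNRNPA2B1 (chr7:26173057-26201529), -0.57 around CLK3 (chr15:74598500-74645414) and -0.35 around CLK4 (chr5:178602664-178630615), in GRCh38 coordinates. Around HNRNPH1 (chr5:179614178-179634784), which lies near CLK4 on chromosome 5, it was -0.39, and around SRSF6 (chr20:43457928-43464247) it was -0.19. The 5 genes whose neighbours had a median under -0.3 had a median difference of -0.53 themselves, against -0.08 for the other 39. Across the 44 genes the difference of a gene and that of its neighbours had a Spearman rho of 0.555 and a Pearson r of 0.799, a description over genes that share the same 4 libraries and, where close together, the same neighbours. With the regional median subtracted, none of the 44 was marked at an unadjusted p, TRA2A was at -0.25 and SRSF6 at -0.26, and 38 genes in all passed the test. The neighbours are read from the same comparison as the genes themselves.

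**Figure D2:**
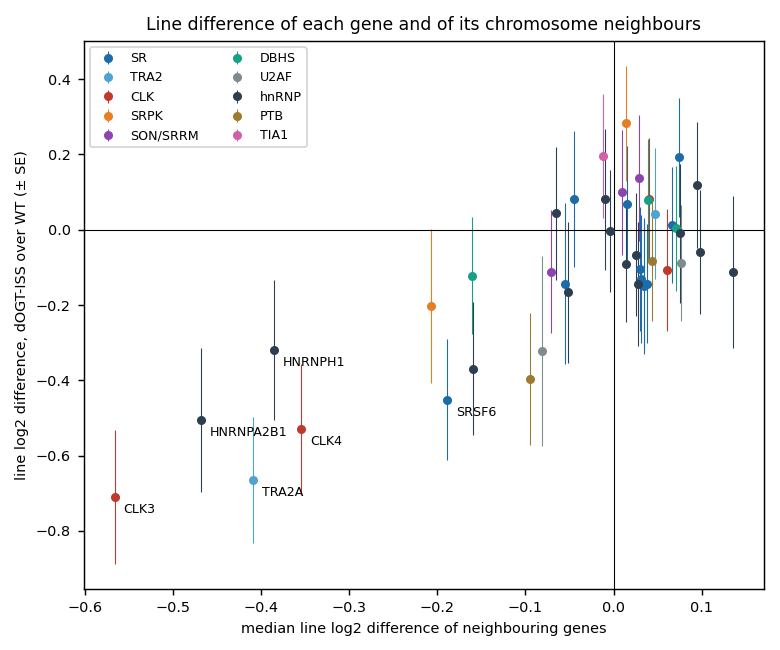
Line difference of each of the 44 genes (y axis, log2, bars are SE) against the median line difference of its neighbours on the chromosome (x axis, log2), coloured by role. CLK3, HNRNPA2B1, TRA2A, CLK4 and HNRNPH1 sit at the lower left, with neighbours between -0.57 and -0.35.

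More of the splicing regulators passed the test between IL-2 times than between lines. Between 24 h and 48 h, 14 of the 44 genes passed the test (31.8%), against 4535 of 17492 genes (25.9%). Of the 14, 10 were lower at 24 h (22.7% of the 44, against 10.9% of all genes and 17.7% of genes averaging at least 20 CPM). The other 4 were higher (9.09%, against 15.0% and 23.1%). The lower ones were HNRNPD, CLK1, TRA2A, HNRNPA2B1, HNRNPU, SRSF7, SRRM1, CLK4, HNRNPDL and PSPC1, and the higher ones HNRNPA0, PTBP1, U2AF2 and SRSF1. The median log2 difference of the 44 was -0.17, against 0.07 for all genes tested and -0.01 for genes averaging at least 20 CPM. It was -0.07 within dOGT-ISS cells and -0.36 within WT cells. The DESeq2 Wald test called the same 14 and also SRSF3 and TRA2B, 16 in all, among 3867 genes that passed. Without a filter on low counts, where the normalisation factors rest on 43630 genes and the median of all genes is 0.23, 11 of the 44 passed, 7 higher and 4 lower, against 3714 genes higher and 1183 lower. Of those 11, 8 were among the 14, and SRSF7, CLK4, SRRM1, PSPC1, HNRNPDL and HNRNPU, 6 of the 10 lower genes, did not pass there (edgeR adjusted p = 0.0614, 0.27, 0.0698, 0.545, 0.381 and 0.0619). In every fit that left out 1 library, HNRNPD passed. The number of the 44 that passed was 12 without the dOGT-ISS 48 h library, 6 without the WT 48 h library, 2 without the WT 24 h library and 1 without the dOGT-ISS 24 h library. Those without the WT 48 h library were SRSF1, CLK1, U2AF2, HNRNPA0, HNRNPD and PTBP1, and those without the WT 24 h library were HNRNPA0 and HNRNPD. Without the dOGT-ISS 48 h library SRSF1, PSPC1 and HNRNPDL were lost and SRSF3 was added. All 14 kept their direction in these fits, which have 3 libraries and no term for line.

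Among the 11 SR proteins 1 rose and 1 fell at 24 h (9.09% each, against 15.0% and 10.9% of all genes tested). SRSF7, a zinc-knuckle SR protein that also couples splicing to export, had 235 and 362 CPM in dOGT-ISS cells at 24 h and 48 h, against 226 and 435 CPM in WT cells. Both 24 h libraries lay below both 48 h libraries, with a log2 difference of -0.79 (SE 0.17, edgeR adjusted p = 0.0121). SRSF1, the founding member of the family, had 258 and 141 CPM in dOGT-ISS cells at 24 h and 48 h, against 239 and 188 CPM in WT cells. Both 24 h libraries lay above both 48 h libraries, with a difference of 0.61 (SE 0.18, edgeR adjusted p = 0.0428). SRSF1 did not pass with DESeq2 size factors or upper-quartile factors in place of TMM (edgeR adjusted p = 0.0526 and 0.0605). SRSF2 had a difference of 0.53 (SE 0.21, edgeR adjusted p = 0.107) and SRSF3 one of -0.54 (SE 0.17, edgeR adjusted p = 0.0536), and neither passed. The values of SRSF1 and SRSF2 were further apart between times in dOGT-ISS cells than in WT cells. The SR proteins not named here ranged from -0.32 (SRSF4) to 0.34 (SRSF9). Of the SR-like pair, TRA2A (values above) was lower in both 24 h libraries, at a log2 difference of -1.11 (SE 0.17, edgeR adjusted p = 0.00345). TRA2B, whose 24 h values also lay below its 48 h values, missed the threshold at -0.50 (SE 0.18, edgeR adjusted p = 0.0707).

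Of the kinases, CLK1 had 73.3 and 146 CPM in dOGT-ISS cells at 24 h and 48 h, against 71.2 and 174 CPM in WT cells. Both 24 h libraries lay below both 48 h libraries, and the log2 difference was -1.14 (SE 0.16, edgeR adjusted p = 0.00276). CLK4, its closest paralog, was also lower at 24 h, at -0.66 (SE 0.17, edgeR adjusted p = 0.0284), with all 24 h values below all 48 h values. CLK2 went the other way, with a difference of 0.47 (SE 0.16, edgeR adjusted p = 0.0696) that did not pass, and CLK3 was at 0.05. SRPK1 and SRPK2 had differences of -0.39 and -0.04, neither of which passed. Without the WT 48 h library CLK4 was at -0.31 (edgeR adjusted p = 0.402), and CLK1 passed at -1.01.

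Of the speckle proteins SRRM1, an SR-related splicing coactivator, had 204 and 308 CPM in dOGT-ISS cells at 24 h and 48 h, against 169 and 324 CPM in WT cells. Both 24 h libraries lay below both 48 h libraries, and the log2 difference was -0.77 (SE 0.17, edgeR adjusted p = 0.0133). SON and SRRM2 were at -0.32 and 0.03, and neither passed. PSPC1, a paraspeckle protein, had 60.9 and 89.0 CPM in dOGT-ISS cells at 24 h and 48 h, against 66.7 and 96.4 CPM in WT cells. It was lower at 24 h in both lines, at a log2 difference of -0.54 (SE 0.16, edgeR adjusted p = 0.0383), whereas its partners SFPQ and NONO had differences of 0.07 and 0.25 that did not pass. NEAT1, the long noncoding RNA on which paraspeckles form, and MALAT1, a long noncoding RNA of speckles, were both lower at 24 h, at log2 differences of -1.36 (SE 0.19, edgeR adjusted p = 0.00266) and -1.50 (SE 0.23, edgeR adjusted p = 0.00355). NEAT1 had 592 and 1257 CPM in dOGT-ISS cells at 24 h and 48 h, against 360.2 and 1112 CPM in WT cells. MALAT1 had 145 and 299.7 CPM in dOGT-ISS cells at 24 h and 48 h, against 116 and 453 CPM in WT cells. In both transcripts all 24 h values lay below all 48 h values. Between the lines NEAT1 was higher in dOGT-ISS cells at each time, at 0.45 (SE 0.19, edgeR adjusted p = 0.541). It did not pass, but was marked at an unadjusted p under 0.05, and MALAT1, at -0.14, was not. U2AF2, the subunit that binds the polypyrimidine tract, was higher in both 24 h libraries (values above), at 0.86 (SE 0.16, edgeR adjusted p = 0.00662). Its partner U2AF1 was at 0.15.

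The hnRNPs held both extremes. HNRNPD, also called AUF1, which binds AU-rich elements and affects mRNA decay as well as splicing, had 120.5 and 304 CPM in dOGT-ISS cells at 24 h and 48 h, against 112 and 354 CPM in WT cells. The 24 h values were well under the 48 h values in both lines, with a level 0.354 times that at 48 h and a log2 difference of -1.50 (SE 0.17, edgeR adjusted p = 0.00113). HNRNPA0, a single-exon gene whose product binds AU-rich mRNAs, had 305 and 114 CPM in dOGT-ISS cells at 24 h and 48 h, against 235 and 133 CPM in WT cells. Both 24 h libraries lay above both 48 h libraries, with a level 2.18 times that at 48 h and a log2 difference of 1.13 (SE 0.19, edgeR adjusted p = 0.00499). HNRNPA2B1 was lower at 24 h at -1.06 (SE 0.19, edgeR adjusted p = 0.00658), and its 4 values, given above, also did not overlap between times. HNRNPU, a nuclear matrix and chromatin-associated hnRNP, had 1115 and 1741 CPM in dOGT-ISS cells at 24 h and 48 h, against 972 and 2022 CPM in WT cells. HNRNPDL, the paralog of HNRNPD, had 284 and 383 CPM in dOGT-ISS cells at 24 h and 48 h, against 233 and 396 CPM in WT cells. In both genes the 24 h values were the lower, at log2 differences of -0.85 (SE 0.19, edgeR adjusted p = 0.0138) and -0.60 (SE 0.17, edgeR adjusted p = 0.0336). The other 9 hnRNPs did not pass and ranged from -0.44 (HNRNPM) to 0.50 (HNRNPL). PTBP1 was higher in both 24 h libraries, at 0.88 (SE 0.16, edgeR adjusted p = 0.00655), while PTBP3 was at -0.14 and TIA1 at 0.21.

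The time difference moved with base composition over the whole transcriptome. Genes whose longest annotated transcript had under 40% G and C had a median log2 time difference of -0.40, and genes with 55% or more had 0.88. Spearman's rho between GC content and time difference was 0.472 over 16884 genes and 0.437 over the 44, each a description across genes that share the 4 libraries. The 44 had a median GC content of 41.9%, against 47.9% for all genes tested. The 10 genes lower at 24 h had a median of 40.5%. Of the 4 higher genes, U2AF2 and PTBP1 had 61.1% and 61.7%, and SRSF1 and HNRNPA0 had 41.2% and 41.1%. With offsets for GC content and length in the fit, 2320 genes passed, 1026 higher and 1294 lower, and the median of the 44 was -0.02. Of the 44, 9 then passed, and 7 of those also passed without offsets. HNRNPD (-1.09), CLK1 (-0.65), TRA2A (-0.74), HNRNPA2B1 (-0.75), SRRM1 (-0.81), SRSF1 (0.85) and HNRNPA0 (1.36) passed in both. HNRNPM (-0.94) and SRSF9 (0.79) passed with offsets and not without them. U2AF2 and PTBP1 turned to -0.11 and -0.18, with edgeR adjusted p = 0.708 and 0.518. SRSF7, CLK4, PSPC1, HNRNPDL and HNRNPU stayed below 0, at -0.49, -0.23, -0.41, -0.47 and -0.53, but did not pass.

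**Figure D3:**
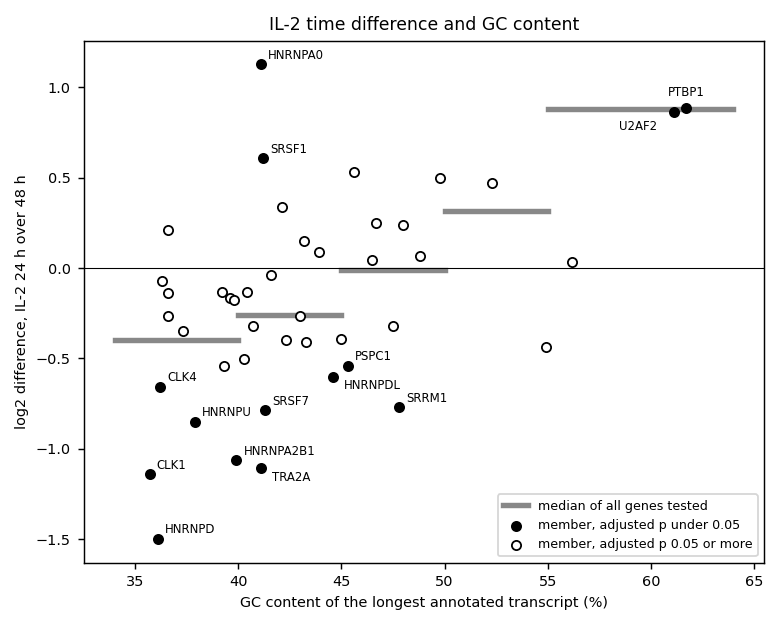
Log2 time difference of each of the 44 genes (y axis) against the GC content of its longest annotated transcript in percent (x axis); filled circles passed the test, and grey bars mark the median of all genes tested in each band of GC content. The end bands run on beyond the drawn bars; U2AF2 and PTBP1 lie on the grey bar at 0.88, while HNRNPA0 and SRSF1 lie far above the bar at -0.26 and HNRNPD far below the bar at -0.40.

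Promoter sequence is shown for 3 of the genes that differed between times, the ones with at least 100 bases of the RefSeq window that lie upstream of every GENCODE 29 transcript of the gene and outside other genes. CLK1 (chr2:200864745-200864908, minus strand) and PSPC1 (chr13:19783020-19783195, minus strand) were lower at 24 h and HNRNPA0 (chr5:137754377-137754613, minus strand) was higher. The sequences are from RefSeq on GRCh38.p14, 5' to 3' on the gene's strand, and capitals mark matches to the motifs listed after them.
CLK1: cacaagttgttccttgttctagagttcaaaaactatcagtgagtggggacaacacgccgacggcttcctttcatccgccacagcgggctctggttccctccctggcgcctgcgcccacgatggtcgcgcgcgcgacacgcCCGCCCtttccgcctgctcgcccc
PSPC1: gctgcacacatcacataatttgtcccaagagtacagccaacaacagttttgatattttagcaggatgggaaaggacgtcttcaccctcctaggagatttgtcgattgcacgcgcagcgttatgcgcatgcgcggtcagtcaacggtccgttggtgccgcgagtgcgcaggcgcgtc
HNRNPA0: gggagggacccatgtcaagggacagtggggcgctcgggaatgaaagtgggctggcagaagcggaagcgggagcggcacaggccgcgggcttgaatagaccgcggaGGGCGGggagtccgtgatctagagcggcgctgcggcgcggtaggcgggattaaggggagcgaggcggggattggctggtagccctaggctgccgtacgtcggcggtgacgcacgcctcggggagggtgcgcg
The search covered the GAS motif bound by STAT factors (TTCNNNGAA), the E-box (CACGTG), the ETS core (CCGGAA), the GC box (GGGCGG) and the CRE (TGACGTCA), on both strands, and no motif contains another. CLK1 and HNRNPA0 each hold 1 GC box and PSPC1 holds none of the 5 motifs in the bases shown. Over the full 250 bases upstream, which the table gives for 40 of the 44 genes (not HNRNPA1, SFPQ, TRA2A or SRSF2), a GC box was present in 67.5% of the 40, against 70.3% of tested genes and 46.2% of all genes in the table. The E-box was present in 17.5%, against 10.8% and 7.7%. The ETS core was in 20.0%, against 29.2% and 17.2%. The GAS motif was in 2.5%, against 7.6% and 8.1%, and the CRE in 0 of the 40, against 3.3% and 2.0%. A match is a run of letters and not a measured binding site.

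The annotation lists unproductive transcripts for most of these genes. In GENCODE 29, 37 of the 44 (84.1%) have at least 1 transcript marked for nonsense-mediated decay, against 43.8% of the 12078 protein-coding genes tested. A retained-intron transcript is listed for 33 (75.0%), against 58.2%, and both kinds for 32 (72.7%), against 33.8%. These are properties of the annotation. Counts per gene add productive and unproductive transcripts together, so a difference in a count can be one in either kind. HNRNPA0, the gene of the 44 with the greatest rise at 24 h, has a single annotated transcript.

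Other genes of the splicing machinery passed the test between times and none did between lines. None of 44 core spliceosome genes passed between the lines (2 at an unadjusted p), and AQR, an intron-binding helicase, had the greatest difference, -0.50 (SE 0.15, edgeR adjusted p = 0.306). Between times 9 of these spliceosome genes rose (20.5%, against 15.0% of all genes tested) and 11 fell (25.0%, against 10.9%). Of genes averaging at least 20 CPM, 23.1% rose and 17.7% fell. The 3 greatest changes among the spliceosome genes were lower at 24 h. These were SF3B6, which sits in the U2 snRNP, with 54.3 and 149.8 CPM in dOGT-ISS cells at 24 h and 48 h, against 55.2 and 154 CPM in WT cells (-1.47 on the log2 scale, SE 0.16, edgeR adjusted p = 0.00101), the Sm protein SNRPE at -1.41 (SE 0.17, edgeR adjusted p = 0.00158) and BUD31 at -1.37 (SE 0.16, edgeR adjusted p = 0.00124). Their values did not overlap between times. Of 48 other splicing regulators tested, none passed between the lines (5 at an unadjusted p, 1 of them higher in dOGT-ISS cells). The lowest edgeR adjusted p among them was 0.111. MBNL2, a muscleblind protein, had the difference greatest in size, -1.20 (SE 0.38, edgeR adjusted p = 0.33), on 54 to 151 counts per library. RBM39 was higher in dOGT-ISS cells at each time, at 1.63 and 1.79 times the WT level at 24 h and 48 h. Between times 6 of the 48 rose (12.5%) and 8 fell (16.7%). PCBP1, a poly(C)-binding hnRNP, was higher at 24 h at a log2 difference of 1.50 (SE 0.19, edgeR adjusted p = 0.00184) and HNRNPUL1 at 1.24 (SE 0.16, edgeR adjusted p = 0.00184). The STAR-family protein QKI was lower, at -1.05 (SE 0.16, edgeR adjusted p = 0.00322). PCBP1 had 61.8 and 25.8 CPM in dOGT-ISS cells at 24 h and 48 h, against 66.3 and 19.9 CPM in WT cells. Of 8 minor spliceosome genes, 2 rose (25.0%) and 1 fell (12.5%), against the same 15.0% and 10.9% of all genes tested. ZMAT5 and SNRNP25 rose, at 1.37 (SE 0.33, edgeR adjusted p = 0.0194) and 0.59 (SE 0.17, edgeR adjusted p = 0.0372), and ZCRB1 fell, at -1.22 (SE 0.17, edgeR adjusted p = 0.00235). None of the 8 passed between the lines, where PDCD7 was at -0.42 (SE 0.17, edgeR adjusted p = 0.499). Median time differences were -0.22 in the core spliceosome, -0.17 in the other regulators and 0.19 in the minor spliceosome, against 0.07 for all genes tested.

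Of 7 other kinases and related enzymes that act on splicing factors, none passed between the lines (1 at an unadjusted p), where CDK13 had -0.45 (SE 0.16, edgeR adjusted p = 0.417). Between times 1 of the 7 rose and 1 fell (14.3% each, against 15.0% and 10.9% of all genes tested). At 24 h SRPK3, a muscle-enriched member of the SRPK family, was higher, with 8.97 and 1.93 CPM in dOGT-ISS cells at 24 h and 48 h, against 11.4 and 0.852 CPM in WT cells. The WT 48 h library held 9 counts of it, and the log2 difference was 2.89 (SE 0.48, edgeR adjusted p = 0.0045). TOP1, which also phosphorylates SR proteins, was lower, at -0.79 (SE 0.16, edgeR adjusted p = 0.0103). Of 14 genes of nonsense-mediated decay, the pathway that destroys the unproductive transcripts, 4 rose (28.6%, against 15.0% of all genes tested) and 2 fell (14.3%, against 10.9%) at 24 h. Of genes averaging at least 20 CPM, 23.1% rose and 17.7% fell. SMG9 was higher at a log2 difference of 1.38 (SE 0.19, edgeR adjusted p = 0.0024), SMG5 at 1.15 (SE 0.17, edgeR adjusted p = 0.00326) and RBM8A, an exon junction protein, at 1.10 (SE 0.19, edgeR adjusted p = 0.00534). None of the 14 passed between the lines (2 at an unadjusted p). UPF2 had the greatest line difference, with 38.2 and 42.8 CPM in dOGT-ISS cells at 24 h and 48 h, against 60.1 and 88.0 CPM in WT cells. Both dOGT-ISS libraries lay below both WT libraries, at a log2 difference of -0.84 (SE 0.18, edgeR adjusted p = 0.113).

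Overlapping genes and gene copies touch a few of these values, since no source used here says how strand and multi-mapping reads were handled. Relative to the member's own counts, GATC on the opposite strand held 39.9% for SRSF9, GART 41.6% and DONSON 10.7% for SON, and CBX3 22.9% for HNRNPA2B1. HNRNPA1 has 75 named copies, which together held 4.52% of its counts. The overlaps and copies not yet mentioned held at most 10.4% each.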

How the data were processed

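The authors deposited raw counts, 1 whole number per Ensembl gene and library, with no normalisation. Libraries were prepared with the CORALL V2 kit after RiboCop removal of ribosomal RNA, per the labels' protocols. HISAT2 2.2.0, SAMtools 1.15.1, featureCounts 2.0.1 and hg38 are named, with no roles or options, per the submitters' processing notes. How strand, multi-mapping reads and molecular identifiers were handled, and which annotation release was used, is not given in the sources used here. The deposited FPKM values are the counts over the table's own transcript length and the library's summed counts, and all 242688 values checked matched. That table lacks 1188 of the 61860 identifiers and repeats 3. No column belonged to other samples.

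Symbols were available for 42417 identifiers, and GENCODE 29 on GRCh38 placed 58308. Genes were kept with filterByExpr at a minimum count of 10, which left 17492. The test was edgeR 4.0.16 in R 4.3.3, a two-sided quasi-likelihood F test with TMM normalisation and a model of line plus IL-2 time over the 4 libraries, which leaves 1 residual degree of freedom. P-values were adjusted by Benjamini-Hochberg over all genes kept, with a threshold of 0.05. Fold changes are dOGT-ISS over WT and 24 h over 48 h. Ratios between single libraries use CPM with a prior count of 2 and exact conditional binomial 95% intervals, which cover counting error only.

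Alternatives were size factors and the Wald test of DESeq2 1.42.0, upper-quartile factors, library size alone, no filter, 1 term left out, limma 3.58.1 on log2(FPKM + 1) and log2(FPKM + 0.1), 24 h libraries thinned to 10889986 counts, offsets for GC content and length (splines with 5 degrees of freedom), subtraction of the regional median, and each library left out in turn. The fitting code was tested on simulated data. The member genes and all gene lists were chosen with earlier results of these data known. Values in every library are given for genes past the test, for the 2 members with the highest mean FPKM in each role and for the member with the largest line difference in each role. From each other list up to 3 genes past the test are named, or else the largest change. RBM39 and PAX5 are named besides. U2AF1L5 stands for the copy of U2AF1. PRPF4B and SRSF12 were not tested. Where a symbol had 2 identifiers, the one with more counts was used.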

Additional observations from a re-analysis of the deposited data

Results flagged for a closer look

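For 15 of the 44 genes the counting intervals of the dOGT-ISS to WT ratio lay on opposite sides of 1, above it at 24 h and below it at 48 h. This count was not made over all genes, so it cannot be read as a trait of the 44. Some bounds lay close to 1, such as those of SRSF3 and SRSF7 at 24 h (1.002 and 1.003) and SRRM1 at 48 h (0.996). The difference between times was not tested, since each ratio rests on 1 library per line. As the log2 ratio at 24 h minus that at 48 h, it was 0.81 for SRSF2, 0.53 for SRSF1, 0.53 for SRSF5, 0.38 for SRSF3 and 0.32 for SRSF7 among the SR proteins, and 0.42 for TRA2B. It was 0.34 for SRRM1 and 0.19 for SFPQ. Among the hnRNPs it was 0.73 for HNRNPA3, 0.60 for HNRNPA0, 0.50 for HNRNPK, 0.41 for HNRNPU, 0.33 for HNRNPA1, 0.33 for HNRNPD and 0.31 for HNRNPH3.

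For 4 more genes it was the time ratio that lay above 1 in dOGT-ISS cells and below 1 in WT cells. The log2 time ratio in dOGT-ISS cells minus that in WT cells was 0.65 for SRPK2, 0.49 for HNRNPH1, 0.47 for CLK3 and 0.44 for PTBP3, again with no test and no such count over all genes. No group had 4 or more libraries, so single libraries could not be checked as outliers within a group.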

How the results depend on the processing

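Between the lines, none of the 44 genes passed under any alternative except without a filter on low counts, where 2 did (TRA2A and CLK3, -0.71 and -0.75). The number of all genes that passed, 81, was 154 with DESeq2 size factors, 546 with no filter, 303 with the DESeq2 Wald test, 195 with 24 h libraries thinned, 135 with GC and length offsets, 38 with the regional median removed, and 0 with the time term left out or with limma at either pseudocount (242, 1570 and 1092 at an unadjusted p). With 1 library left out it was 0 to 13, and without the WT 48 h library, in a fit with no time term, TRA2A turned to 0.038 and HNRNPA2B1 to 0.21. Their ranges with 1 library left out were -1.30 to 0.038 and -1.10 to 0.21. The members' median, -0.10, was -0.31 to 0.083 with 1 library left out: -0.31 without the WT 24 h library and, with the sign changed, 0.083 without the WT 48 h library.

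Between times, 4535 genes and 14 members passed. The members were 9 with the line term left out, 7 with limma on log2(FPKM + 1), 0 with limma on log2(FPKM + 0.1) (10 at an unadjusted p), 9 with GC and length offsets and 1 to 12 with 1 library left out. Genes were 2320 with the offsets, 0 with limma on log2(FPKM + 0.1) (5601 at an unadjusted p) and 570 to 3545 with 1 library left out. With the line term left out 3280 genes passed, and with limma on log2(FPKM + 1) 3463 did. U2AF2 and PTBP1 reversed with the offsets, to -0.11 and -0.18. With no filter the members' median was 0.05. Apart from those 2 genes, the 14 kept their direction under every alternative. Fits with 3 libraries cannot hold both terms, so they mix line with time; the cause of the other changes was not tested. The labels give no replicate numbers to pair by; the fit with both terms already compares the lines within each time, and the fit without the time term is its unblocked form. SRSF1 lost its call with DESeq2 size factors and with upper-quartile factors.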
